A study of Mus musculus with 25 samples.

Results

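Adipocyte and lipid storage genes were followed through muscle injury, 10 in all: Adipoq, Cfd, Fabp4, Thrsp, Ces1d, Scd1, Plin4, Lpl, Car3 and Rxrg. They were taken from the array's probe sets that the platform annotation assigns to exactly 1 gene symbol. Of the 10 genes, 9 had such a probe set, and Cfd had none named in that annotation. The 9 genes had 13 probe sets between them, of 12488 on the array, and they are 9 of 8252 genes named. A gene with several probe sets is represented by the one with the highest mean log2 level over all arrays. All 9 passed the filter on dim probe sets.

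Fat cells keep triglyceride in 1 large droplet, and muscle fibres keep it in small droplets beside their mitochondria. A muscle also holds a few fat cells between its fibres, so a lipid gene measured in whole muscle can come from either source. Adiponectin (Adipoq) and complement factor D (Cfd, adipsin) are secreted by fat cells and mark them. Fabp4 carries fatty acids in fat cells, and also in endothelial cells and macrophages. Ces1d is a carboxylesterase that splits stored triglyceride in fat and liver. Thrsp (Spot 14) and Scd1 (stearoyl-CoA desaturase 1) belong to fatty acid synthesis, Thrsp as a regulator and Scd1 as the enzyme that makes monounsaturated fatty acids. Plin4 coats lipid droplets in fat and in skeletal muscle. Lpl, lipoprotein lipase, releases fatty acids from circulating lipoproteins and is made by muscle fibres as well as by fat cells. Car3 is a carbonic anhydrase of slow muscle fibres, liver and fat. Rxrg, the gamma retinoid X receptor, pairs with other nuclear receptors and is found in skeletal muscle.

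Muscle came from the shin (tibialis anterior) of female C57BL/6J mice aged 2 to 3 months. The injured groups were freeze, made with a steel probe 6 mm across cooled on dry ice and held on the muscle for 10 s, and contraction, made by 150 eccentric contractions in vivo. Each was sampled at 6 hours and after 1, 3 and 7 days. Controls were uninjured muscles of such mice. Groups held 3 arrays each, but freeze at 7 days and contraction at 1 day held 2, which made 25 arrays in 9 groups. The mice carried no named transgene or deletion. Whether any muscles came from the same mouse is not in the labels, so the p-values cover variation among these arrays, which may be partly technical.

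Values are signals in the array's own linear units, scaled by the authors. Differences are between mean log2(signal + 13) ± SE, injured minus control unless another pair is named, which understates the change of dim genes. A gene rose or fell where limma's moderated test gave an adjusted p under 0.05, with Benjamini-Hochberg adjustment over all 9506 probe sets tested. A signal is called dim where it was not above the 40th percentile of its array, which lay between 33.4 and 42.5 units. The probe set level of one gene is not comparable with that of another. One array, freeze at 3 days sample 436, correlated at 0.711 with its group mates and at 0.935 to 0.942 with the controls across probe sets. It kept its label here, and each call on the 9 genes is also given without it. Leaving it out narrowed the median spread within groups to 0.323 log2 units, against 0.385 with all arrays. The labelled tissue was checked on 13 fast fibre markers, whose summed signal was 94975.1 to 99520.6 at 7 days after freezing and 120736.2 to 195222.5 in controls. At 3 days it was lower, 29819.4 and 37685 after freezing without sample 436 and 70938.8 to 92945.6 after contraction. Sample 436 gave 196300.2.

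**Figure D1:**
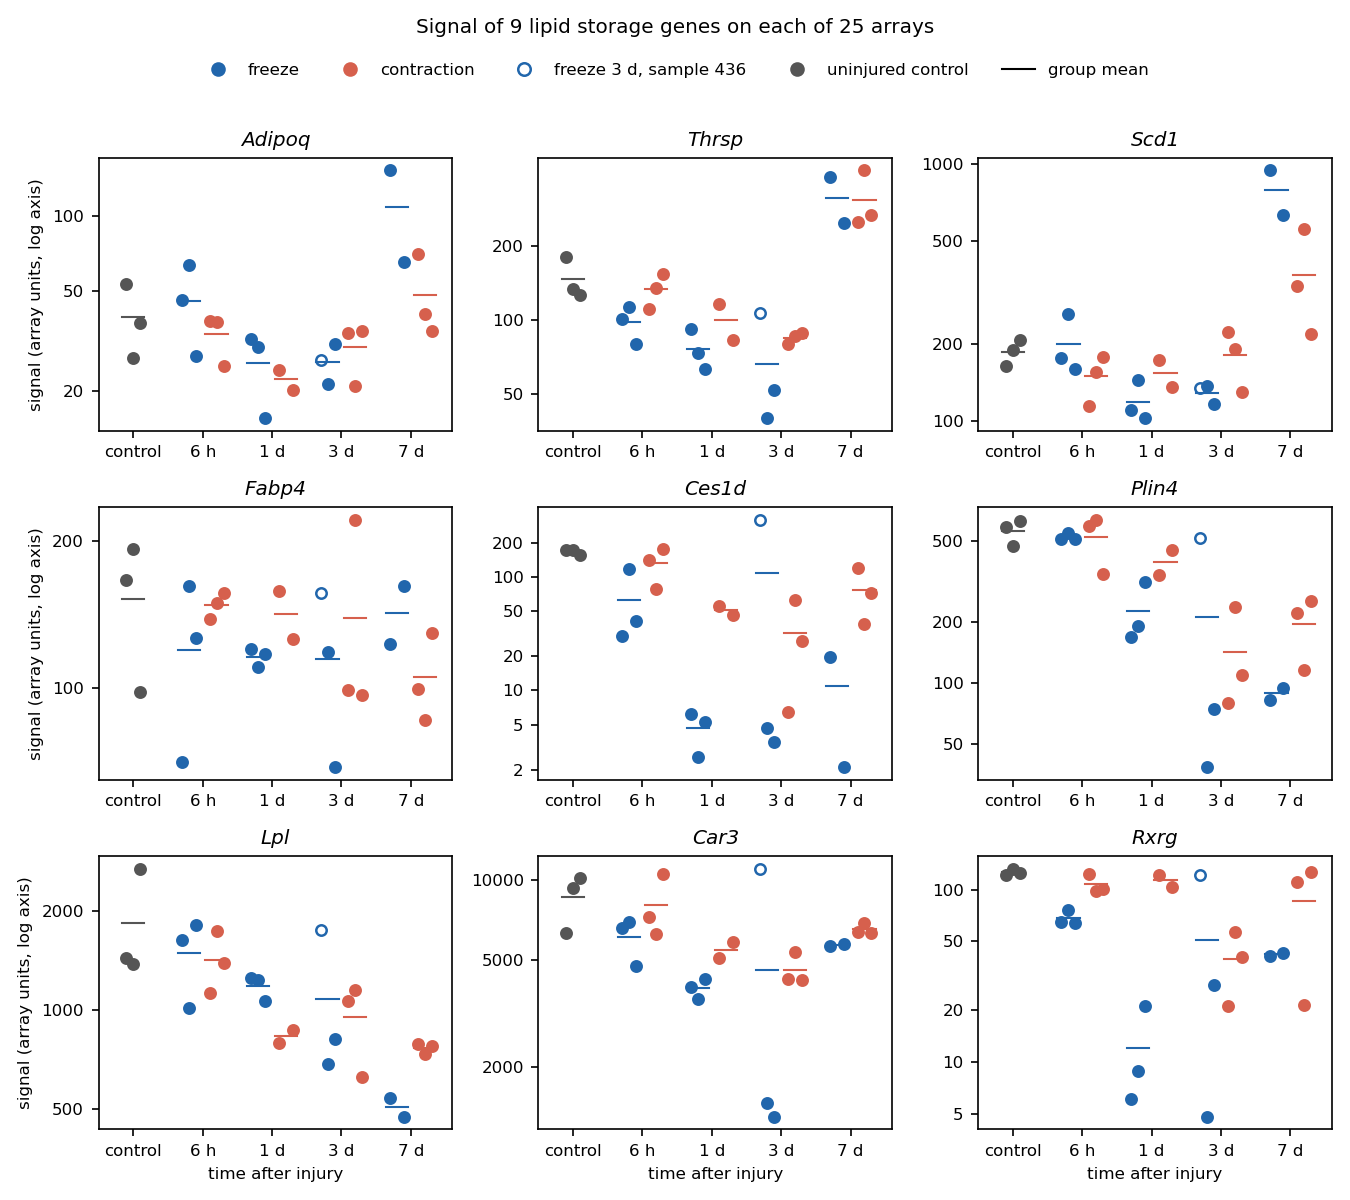
Signal of each of the 9 genes on every array, on a log axis in array units, by time after injury, with freeze (blue) left of contraction (red) and uninjured controls (grey) as the baseline at the left. Points are arrays, lines are group means, and the open circle is freeze at 3 days sample 436, which lies near the controls for Plin4, Car3 and Rxrg and above them for Ces1d, while the other 2 arrays of its group lie far below it.

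The fat cell genes did not move as a block. Adipoq was dim on 15 of 25 arrays and was highest 7 days after freezing. Its signal there was 152.9 and 65.9, against 53.4, 27.1 and 37.5 in controls. Both freeze arrays lay above all controls, and they differed from each other by more than the controls did. The difference was 1.16 ± 0.35 and missed the threshold with all arrays (adjusted p = 0.0573). Without sample 436 it passed (adjusted p = 0.0245). Against freeze at 1 day, where Adipoq gave 32.3, 29.8 and 15.5, it rose at 7 days by 1.59 ± 0.35 (adjusted p = 0.00885, and 0.0047 without sample 436). That call ended without freeze at 7 days sample 440 or without freeze at 1 day sample 464, with differences between 1.05 and 2.12 over all single omissions. Contraction at 7 days gave 70.5, 40.6 and 34.6, a range that overlaps freeze at 7 days (0.94 ± 0.35, freeze minus contraction, adjusted p = 0.319). Adipoq passed the 40th percentile on 2 of 2 arrays of freeze at 7 days, on 3 of 3 of contraction at 7 days and on 2 of 3 controls, and on 0 arrays of either injury at 1 and 3 days.

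Resistin (Retn) lay between 3.9 and 16.5 and Cidec, a droplet fusion protein of fat cells, between 1.1 and 6.7 over the 25 arrays. Both were above the 40th percentile on 0 arrays, so neither passed the filter. Leptin (Lep), the satiety hormone of fat cells, lay between 105 and 340.7 and was above the 40th percentile on all 25 arrays. It was called in 0 of 14 comparisons with or without sample 436. No probe set was named for Cfd, Plin1 or Adrb3. The 14 fat cell markers that are not members and are on the array summed to 943.7 and 1011.6 after freeze at 7 days and to between 811.6 and 922.4 after contraction at 7 days, against 795.3 to 1007.4 in controls, ranges that overlap. At 3 days after freezing they summed to 2163.7 and 2308.6, and to 811.2 in sample 436. Cebpa alone reached 1761.9 in the arrays other than sample 436. Of the 14 markers 8 passed the filter, and the brightest genes weigh most in such a sum. Its overlap with the controls at 7 days therefore cannot show whether fat cell content changed. In bulk muscle, a change in the number of fat cells and a change in RNA per fat cell cannot be told apart.

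Fabp4 did not pass any test. Its signal was 122.9 and 161.4 after freeze at 7 days, 99.7, 86.2 and 129.7 after contraction at 7 days, and 166.4, 192.4 and 98 in controls. All its signals lay between 68.8 and 221, and the spread within groups covered most of that range. The moderated F test for any injured group against control gave an adjusted p of 0.812, or 0.579 without sample 436. Its largest difference from control was at freeze 3 days without sample 436, at -0.62 ± 0.33 (adjusted p = 0.134).

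Ces1d had the largest fall of the 9 genes. Its signal was 6.2, 2.6 and 5.3 at 1 day after freezing, against 170.5, 172.4 and 154.9 in controls. All 3 freeze arrays were dim and all 3 controls were not, and the gene fell by 3.34 ± 0.76, or 10.1-fold on that scale (adjusted p = 0.00629, and 5.85e-06 without sample 436). No single omission ended this call. At 7 days after freezing Ces1d was 19.7 and 2.1, a difference of -3.01 ± 0.85 (adjusted p = 0.0419, and 0.000136 without sample 436). Leaving out any of 14 single arrays ended that call, with differences between -3.57 and -2.45.

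At 3 days the 2 freeze arrays of samples 450 and 468 gave 4.7 and 3.5 for Ces1d, while sample 436 gave 318.4, above every control. The group therefore did not pass with all arrays (-1.96 ± 0.76, adjusted p = 0.0735), and without sample 436 it fell by 3.39 ± 0.49 (adjusted p = 6.87e-06). After contraction the gene was 55.5 and 45.8 at 1 day, 6.4, 62.2 and 27.2 at 3 days and 118.3, 38.4 and 72.2 at 7 days, all below the controls. None of these differences passed with all arrays, and only that at 3 days passed without sample 436 (-2.20 ± 0.44, adjusted p = 0.000765). A second probe set for Ces1d at 1 day after freezing fell by 2.48 ± 0.79 (adjusted p = 0.0393, and 0.00129 without sample 436). On that probe set the 7 day difference was -1.73 ± 0.88 and not called (adjusted p = 0.233), or called without sample 436 (adjusted p = 0.045). The main probe set can bind several carboxylesterase genes, as its type suffix marks a family probe set, so the gene behind the signal is uncertain.

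Thrsp fell at 1 and 3 days after freezing and was high at 7 days after both injuries. At 3 days after contraction it was 80.1 to 88.3, also below every control. That difference was -0.70 ± 0.27 (adjusted p = 0.1) and passed only without sample 436 (adjusted p = 0.0242). It gave 92.2, 73.4 and 63.5 at 1 day after freezing, against 180.6, 134.2 and 127 in controls, a difference of -0.84 ± 0.27 (adjusted p = 0.0399, and 0.00618 without sample 436). At 3 days it was 107 in sample 436 and 39.9 and 51.9 in the others, a difference of -1.09 ± 0.27 (adjusted p = 0.0149), or -1.44 ± 0.25 without sample 436 (adjusted p = 5.07e-05). At 7 days the order was turned, with 380.8 and 247.9 after freeze and 251.2, 405.8 and 268.3 after contraction, every array above every control. Against control these differences were 1.02 ± 0.30 after freeze (adjusted p = 0.0504) and 0.99 ± 0.27 after contraction (adjusted p = 0.12). Both passed without sample 436 (adjusted p = 0.00514 and 0.0133).

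Against the same injury at 1 day, Thrsp rose at 7 days in both series. Freeze gave 1.86 ± 0.30 (adjusted p = 0.000473, and 1.56e-05 without sample 436), and no single omission ended the call. Contraction, where Thrsp was 116.6 and 83.3 at 1 day, gave 1.49 ± 0.30 (adjusted p = 0.00566, and 0.000378 without sample 436). That call ended without contraction at 1 day sample 463, with differences between 1.28 and 1.71 over the single omissions. At 7 days the injuries differed by 0.03 ± 0.30, freeze minus contraction (adjusted p = 0.982). The 1 day fall against control ended without any 1 of the 3 controls or of freeze at 1 day samples 460 and 464 (differences between -0.96 and -0.70). The 3 day fall ended without control 1 or samples 450 or 468 (between -1.44 and -0.85).

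Scd1 had the largest rise. It gave 941.3 and 633 at 7 days after freezing and 335.6, 557.1 and 217.5 at 7 days after contraction, against 163.3, 188 and 206.8 in controls. Every array of both injuries at 7 days exceeded every control, and the 2 freeze arrays exceeded the 3 contraction arrays. Freeze at 7 days rose by 1.99 ± 0.31, or 3.96-fold (adjusted p = 0.000832, and 5.75e-05 without sample 436), while contraction differed by 0.85 ± 0.28 (adjusted p = 0.231). Freeze minus contraction at 7 days was 1.13 ± 0.31 (adjusted p = 0.125, and 0.0228 without sample 436). Against freeze at 1 day, with 110.2, 143.9 and 102.5, Scd1 rose 6.01-fold by 7 days (2.59 ± 0.31, adjusted p = 1.77e-05, and 2.55e-06 without sample 436).

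A second Scd1 probe set showed the same order, with 528.5 and 479.9 at 7 days after freezing, 102.8, 168.8 and 88.9 after contraction, and 93.5, 137 and 96.2 in controls. There freeze minus contraction at 7 days was 2.00 ± 0.26 and passed (adjusted p = 0.000196, and 4.62e-05 without sample 436). Contraction at 7 days overlapped the controls on this probe set (0.10 ± 0.23). The remaining Scd1 probe set was dim on most arrays and gave the opposite sign, 31.6 and 13.2 at 7 days after freezing against 60.1, 20.8 and 71 in controls (-0.79 ± 0.57, adjusted p = 0.409). The call against control on the main probe set ended without freeze at 7 days sample 440, with differences between 1.70 and 2.27 over the single omissions. The test of injury by time for Scd1 gave an adjusted p of 0.248, or 0.0687 without sample 436. The second probe set fell at 3 days after freezing, to 36, 37.5 and 42.7 (-1.22 ± 0.23, adjusted p = 0.00866, and 0.00061 without sample 436). At 1 day after freezing it fell only without sample 436 (-0.65 ± 0.23, adjusted p = 0.0359, and 0.059 with all arrays). The main probe set was lower at 1 and 3 days too, at -0.60 ± 0.28 and -0.49 ± 0.28. Neither was called with or without sample 436 (adjusted p = 0.147 and 0.214 with all arrays).

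By RefSeq's GRCm38.p6, Adipoq lies on chromosome 16 (23146536-23157968), Thrsp on 7 (97412933-97417550), Scd1 on 19 (44394450-44407709), Plin4 on 17 (56100587-56109948), Rxrg on 1 (167598362-167639623), Ces1d and Lpl on 8 (93166072-93197804 and 68880555-68906932), and Fabp4 and Car3 on 3 (10204342-10208616 and 14863538-14872381). The regions upstream of Adipoq and Thrsp, which were both high 7 days after freezing, and of Rxrg, which fell, are given as 250 bases each, 5′ to 3′ along the gene's strand and ending at the base before the gene's start. They come from RefSeq, build GRCm38.p6, where 5 of the 10 genes had an entry. Capitals mark each match to CCAAT on either strand. Also searched on both strands were the TATA box TATAAA, the nuclear receptor motif AGGTCA, the C/EBP type motif TTGCNNAA, the E-box CANNTG and the MEF2 core motif with any base at its middle positions. In the windows printed, only CANNTG of these had matches, 1 upstream of Adipoq and 2 upstream of Thrsp, none of which overlapped a CCAAT match. Rxrg has a second RefSeq start, whose window (chr1:167618015-167618264, plus strand) held no CCAAT, 1 AGGTCA, 1 TTGCNNAA and 2 CANNTG, 1 of them overlapping the AGGTCA.
Adipoq, chr16:23146286-23146535, plus strand: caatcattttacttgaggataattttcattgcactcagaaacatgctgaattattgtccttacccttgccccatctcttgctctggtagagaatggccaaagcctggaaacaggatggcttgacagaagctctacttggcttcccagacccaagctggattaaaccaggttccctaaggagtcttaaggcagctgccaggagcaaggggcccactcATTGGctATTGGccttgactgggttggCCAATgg
Thrsp, chr7:97417551-97417800, minus strand: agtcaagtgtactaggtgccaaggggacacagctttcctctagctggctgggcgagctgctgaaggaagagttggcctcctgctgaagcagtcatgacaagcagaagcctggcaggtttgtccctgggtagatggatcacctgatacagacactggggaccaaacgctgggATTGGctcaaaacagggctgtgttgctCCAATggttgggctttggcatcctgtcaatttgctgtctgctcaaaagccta
Rxrg, chr1:167598112-167598361, plus strand: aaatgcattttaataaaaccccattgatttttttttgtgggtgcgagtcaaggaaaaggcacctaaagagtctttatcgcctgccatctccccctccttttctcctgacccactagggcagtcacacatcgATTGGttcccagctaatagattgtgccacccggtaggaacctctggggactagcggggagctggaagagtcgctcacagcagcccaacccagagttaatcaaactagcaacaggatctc
CCAAT had 3 matches upstream of Adipoq, 2 upstream of Thrsp and 1 upstream of Rxrg. The windows of Cfd and Plin4, which are not printed, held 0 and 1. Of 32851 such windows in the table, 33.8% held CCAAT, 12.4% TATAAA, 14% AGGTCA, 9.56% TTGCNNAA, 66.2% CANNTG and 3.2% the MEF2 core, on either strand. A match is a run of letters and not a measured binding site.

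Plin4, the droplet coat gene, fell by 3 days after both injuries and was still low at 7 days after freezing. It was 82.8 and 95 at 7 days after freezing, against 591.5, 475.6 and 628.9 in controls, a difference of -2.50 ± 0.61, or 5.65-fold (adjusted p = 0.0222, and 3.27e-05 without sample 436). At 3 days after contraction it was 79.8, 238.1 and 109.1, a difference of -2.02 ± 0.54 (adjusted p = 0.0276, and 8.01e-05 without sample 436). At 3 days after freezing it was 520.2 in sample 436 and 38.3 and 74.4 in the others, a difference of -2.10 ± 0.54 (adjusted p = 0.0174), or -3.10 ± 0.36 without sample 436 (adjusted p = 3.25e-07). At 6 hours it was still at 512.3 to 551.5 after freeze, within the control range, and at 343.4 to 640.2 after contraction, which overlaps it.

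Without sample 436, Plin4 also fell at 1 day after freezing (-1.32 ± 0.32, adjusted p = 0.00382) and at 7 days after contraction, where it gave 220.6, 116 and 253 (-1.52 ± 0.32, adjusted p = 0.00938). The call at 7 days after freezing ended without control 1, control 3, or freeze at 7 days sample 440 or 454, with differences between -2.61 and -2.41. That at 3 days after contraction ended without control 1, control 3, or samples 435 or 467 (between -2.43 and -1.71), and that at 3 days after freezing without control 3 or samples 450 or 468 (between -3.10 and -1.41).

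On its main probe set Lpl was low at 7 days after both injuries, and also low at earlier times. Its signal was 539.5 and 472.5 at 7 days after freezing and 789.1, 732.9 and 773.4 at 7 days after contraction, against 1441.6, 1377.4 and 2691.1 in controls. All 5 injured arrays lay below all controls, and the freeze arrays lay below the contraction arrays. Freeze at 7 days fell by 1.77 ± 0.35, or 3.4-fold (adjusted p = 0.00785, and 8.88e-05 without sample 436), a call that ended without either of its own 2 arrays (differences between -1.94 and -1.46). Contraction differed by -1.18 ± 0.32 (adjusted p = 0.118, and 0.0089 without sample 436). Freeze minus contraction at 7 days was -0.59 ± 0.35 (adjusted p = 0.549). At 1 day the injuries were in the other order, with 1250.6, 1237.3 and 1063.1 after freeze and 793.8 and 869.8 after contraction (0.50 ± 0.35, adjusted p = 0.535). Without sample 436 the main probe set also fell at 1 and 3 days after contraction (-1.06 ± 0.28 and -0.92 ± 0.25, adjusted p = 0.028 and 0.00931). It then fell at 3 days after freezing too (-1.22 ± 0.28, adjusted p = 0.00111). These falls were not called with all arrays (adjusted p = 0.188, 0.0707 and 0.0756). A second Lpl probe set gave -0.94 ± 0.28 for freeze at 7 days against control (adjusted p = 0.0518, and 0.00564 without sample 436). On that probe set the mean after contraction was lower at 1 and 3 days (105.8 and 100.3) than at 7 days (119.7), against 191.3 in controls. It fell there at 3 days after contraction (-0.85 ± 0.25, adjusted p = 0.0401, and 0.00417 without sample 436). Only without sample 436 did the second probe set fall at 1 and 3 days after freezing (-0.72 ± 0.21 and -0.72 ± 0.23, adjusted p = 0.012 and 0.0149).

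Car3 and Rxrg, both known in muscle fibres and Car3 also in fat, were lowest at 1 or 3 days after freezing. Car3 was 3973.6, 3576.7 and 4252.3 at 1 day after freezing, against 6304.4, 9306.4 and 10177.1 in controls (-1.10 ± 0.49, adjusted p = 0.136, and 0.000304 without sample 436). At 3 days it was 11001.2 in sample 436 and 1463.3 and 1301.1 in the others. The difference was -1.60 ± 0.49 with all arrays (adjusted p = 0.0316) and -2.60 ± 0.23 without sample 436 (adjusted p = 6.09e-09). With all arrays it ended without any control or without sample 450 or 468 (differences between -2.60 and -1.06). At 7 days Car3 was 5656.6 and 5749.1 after freeze and 6368.1, 6886.6 and 6329.2 after contraction, neither of which passed against control with or without sample 436. At 3 days after contraction it was 4242.4, 5359.7 and 4205.3, and without sample 436 the injuries then differed by -1.72 ± 0.23, freeze minus contraction (adjusted p = 2.57e-05). Car3 was the only 1 of the 9 genes to pass the test of injury by time, and only without sample 436 (adjusted p = 0.0157, against 0.986 with all arrays).

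Rxrg separated the injuries at 1 day. It was 6.1, 8.8 and 21.2 at 1 day after freezing and 122.1 and 104 at 1 day after contraction, against 120.9, 132.1 and 125.4 in controls. Freeze fell by 2.52 ± 0.52 (adjusted p = 0.0031, and 4.28e-05 without sample 436) and no single omission ended that call, while contraction differed by -0.15 ± 0.58 (adjusted p = 0.965). Freeze minus contraction at 1 day was -2.37 ± 0.58, or 5.19-fold lower (adjusted p = 0.0398, and 0.000926 without sample 436). With all arrays, leaving out any of 11 single arrays ended this call, with differences between -2.62 and -2.20. At 3 days Rxrg was 121.1 in sample 436 and 4.8 and 28.1 in the others (-1.59 ± 0.52, adjusted p = 0.0393, and -2.36 ± 0.44, adjusted p = 0.000134, without it). The call with all arrays ended without any control or without sample 450 or 468 (differences between -2.36 and -0.91).

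At 3 days after contraction Rxrg was 21.1, 56.6 and 40.5, all below the controls (-1.47 ± 0.52, adjusted p = 0.0768, and 0.00873 without sample 436). At 7 days it was 41.2 and 43 after freeze (-1.34 ± 0.58, adjusted p = 0.166, and 0.036 without sample 436) and 110.7, 21.4 and 126.1 after contraction (-0.73 ± 0.52, adjusted p = 0.734). One contraction array of sample 439 thus lay apart from its 2 group mates.

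**Figure D2:**
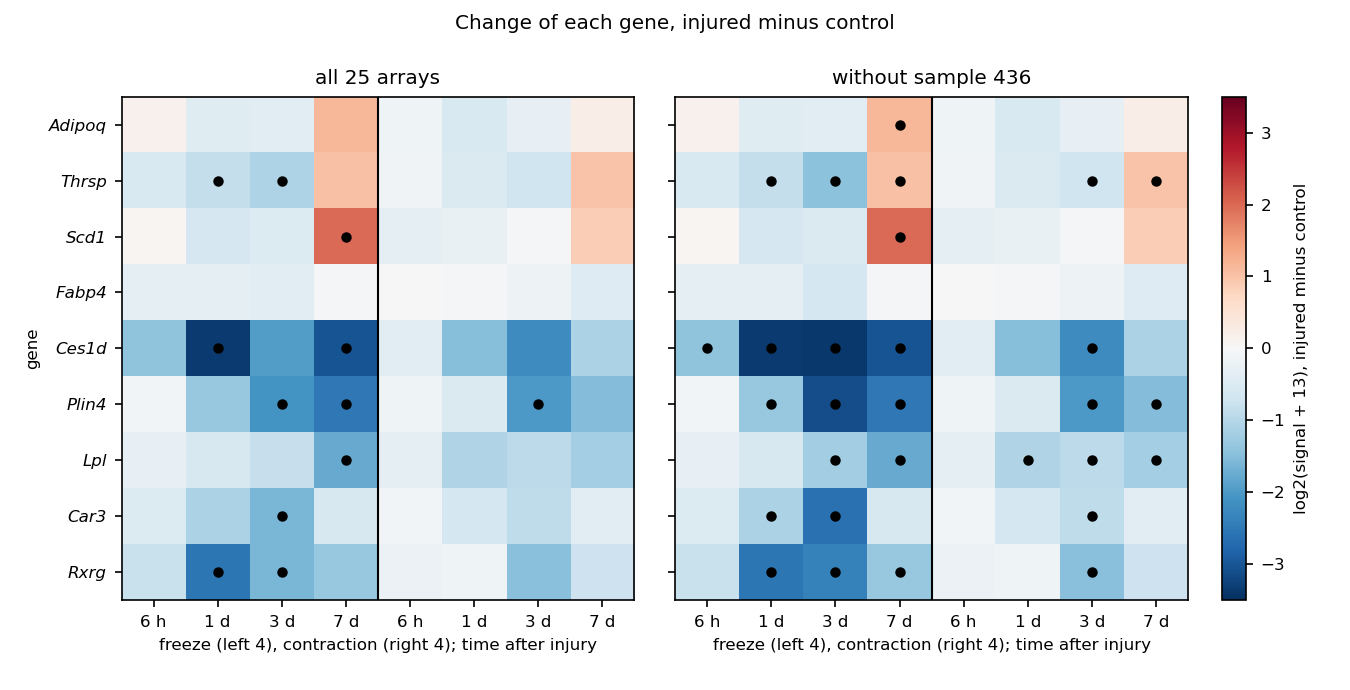
Difference in mean log2(signal + 13), injured minus control, for each gene (rows) and injured group (columns), with all 25 arrays (left) and without sample 436 (right). Dots mark an adjusted p under 0.05. The 2 synthesis genes and Adipoq are red at 7 days, and Ces1d, Plin4, Lpl and Rxrg are blue there. Car3 is a paler blue at 7 days after both injuries and Fabp4 after contraction, without dots.

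Against control, freeze changed 0, 3, 4 and 4 of the 9 genes at the 4 successive times. Of all probe sets tested, 4.85%, 14.2%, 17.9% and 5.29% were called at these times. Contraction changed 0, 0, 1 and 0 of the 9, against 1.87%, 1.79%, 8.25% and 0.537% of all probe sets. The 4 calls at 7 days after freezing were a rise of Scd1 and falls of Ces1d, Plin4 and Lpl. Without sample 436 the freeze counts were 1 (Ces1d), 5 (Thrsp, Ces1d, Plin4, Car3 and Rxrg), 6 (the same and Lpl) and 7, against 11.5%, 27%, 42.6% and 19.7% of all, and the contraction counts 0, 1 (Lpl), 6 (Thrsp, Ces1d, Plin4, Car3, Lpl and Rxrg) and 3 (Thrsp up, Plin4 and Lpl down), against 3.4%, 4.4%, 22.9% and 3.07%. These 7 at 7 days after freezing were rises of Adipoq, Thrsp and Scd1 and falls of Ces1d, Plin4, Lpl and Rxrg. The median difference of the 9 genes was lowest at 3 days after freezing, at -1.09 beside -0.09 over all probe sets tested, and at -1.44 beside -0.12 without sample 436. In contraction it was lowest at 3 days too, at -0.88 beside -0.06. The F test for any injured group called 7 of the 9 genes beside 26.2% of all, or 8 beside 49.6% without sample 436. The test of injury by time called 0 beside 0.589%, or 1 beside 4.49%.

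Between the injuries, 0, 1, 0 and 0 of the 9 genes were called at the 4 successive times. The share of all probe sets was 0.305%, 1.45%, 0.389% and 0.368%. Without sample 436 the counts were 0, 2, 3 and 2, against 2.43%, 10.2%, 17.1% and 7.34% of all. Those were Ces1d and Rxrg at 1 day, Thrsp, Plin4 and Car3 at 3 days, and Ces1d and Scd1 at 7 days. All but Scd1 were lower after freeze. The 7 day against 1 day comparison called 3 genes in freeze (Adipoq, Thrsp and Scd1, all rises) and 1 in contraction (Thrsp, a rise), beside 4.22% and 2.31% of all probe sets. Without sample 436 it called 5 in freeze, with falls of Plin4 and Lpl added, and 2 in contraction, with a rise of Scd1 added, beside 9.07% and 5.38%.

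The list genes named here as changed with all arrays were also called without sample 436. Of 18 genes of fatty acid oxidation in fibres that were tested, 11 fell and 0 rose at 3 days after freezing, with a median difference of -1.03 beside -0.09 over all probe sets, and 5 fell and 0 rose at 3 days after contraction, with a median of -0.92 beside -0.06. Eci1, an isomerase of unsaturated fatty acid oxidation, fell by 1.63 ± 0.38 at 3 days after freezing (adjusted p = 0.0137) and by 1.54 ± 0.38 at 3 days after contraction (adjusted p = 0.0172). Ucp3, the uncoupling protein of muscle, fell by 1.38 ± 0.44 at 1 day after freezing (adjusted p = 0.0411). Without sample 436, 18 of 18 fell at 3 days after freezing and 16 of 18 at 3 days after contraction. At 7 days after freezing 10 of 18 fell without sample 436, where 0 fell with all arrays. Of all probe sets, 42.6%, 22.9% and 19.7% were called in these comparisons without sample 436. With all arrays these shares were 17.9%, 8.25% and 5.29%. The list was chosen with results of these samples known, so its direction is not independent evidence.

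Of 15 uptake genes tested, 3 fell and 1 rose at 7 days after freezing, with a median of 0.05 beside -0.06 over all probe sets. Slc27a1, a fatty acid transporter of muscle and fat, gave 61.5 and 91.6, against 235.5 to 391.3 in controls, and fell by 1.91 ± 0.22 (adjusted p = 2.37e-05). Cd36, the fatty acid translocase, gave 41.5 and 55.1, against 151.5 to 181.9 in controls, and fell by 1.57 ± 0.32 (adjusted p = 0.00913). Apoe, an apolipoprotein that macrophages also make, gave 5267.7 and 5403.1, against 19.7 to 207.9 in controls, and rose by 5.83 ± 1.5 (adjusted p = 0.0282). Without sample 436 the count at this time was 3 falls and 4 rises. The share of all probe sets called was 19.7% without sample 436, and 5.29% with all arrays.

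Among 18 synthesis genes the calls went both ways. With a median of 0.05 at 7 days after freezing, 0 rose and 1 fell, and without sample 436 2 rose and 5 fell. The share of all probe sets called at that time was 5.29%, or 19.7% without sample 436. Me1, the malic enzyme that supplies reducing power to synthesis, gave 199.6 and 202.7, against 614.4 to 819.4 in controls, and fell by 1.69 ± 0.48 (adjusted p = 0.044). Scd2, a second desaturase gene, gave 407 and 455, against 133.2 to 188.5 in controls, and rose without sample 436 (1.40 ± 0.30, adjusted p = 0.00164; 0.106 with all arrays). Gpd1, which makes glycerol 3-phosphate for triglyceride, gave 153.8 to 258.4 at 3 days after contraction, against 1197.4 to 2476.8 in controls, and fell by 2.93 ± 0.44 (adjusted p = 0.000574). Mid1ip1, a close relative of Thrsp, rose at 6 hours after freezing by 2.19 ± 0.32 (adjusted p = 9.37e-05), a time at which Thrsp itself was not called.

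Of 9 lipid droplet and lipolysis genes, 1 rose and 1 fell at 3 days after freezing, with a median of -0.20 over all arrays. Without sample 436, 1 rose and 3 fell. The share of all probe sets called there was 17.9%, or 42.6% without sample 436. Plin2, the droplet coat of most cell types including macrophages, rose by 2.21 ± 0.49 there (adjusted p = 0.0117), or by 3.19 ± 0.26 without sample 436. It reached 2440.2, against 229.8 to 269.3 in controls, while Plin4 fell in the same group. Pnpla2, the triglyceride lipase ATGL, fell by 0.99 ± 0.28 (adjusted p = 0.0237). At 7 days after freezing 0 of the 9 were called, or 2 fell without sample 436, and Plin2 gave 287.9 and 346.4. The share of all probe sets was then 5.29%, or 19.7% without sample 436.

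**Figure D3:**
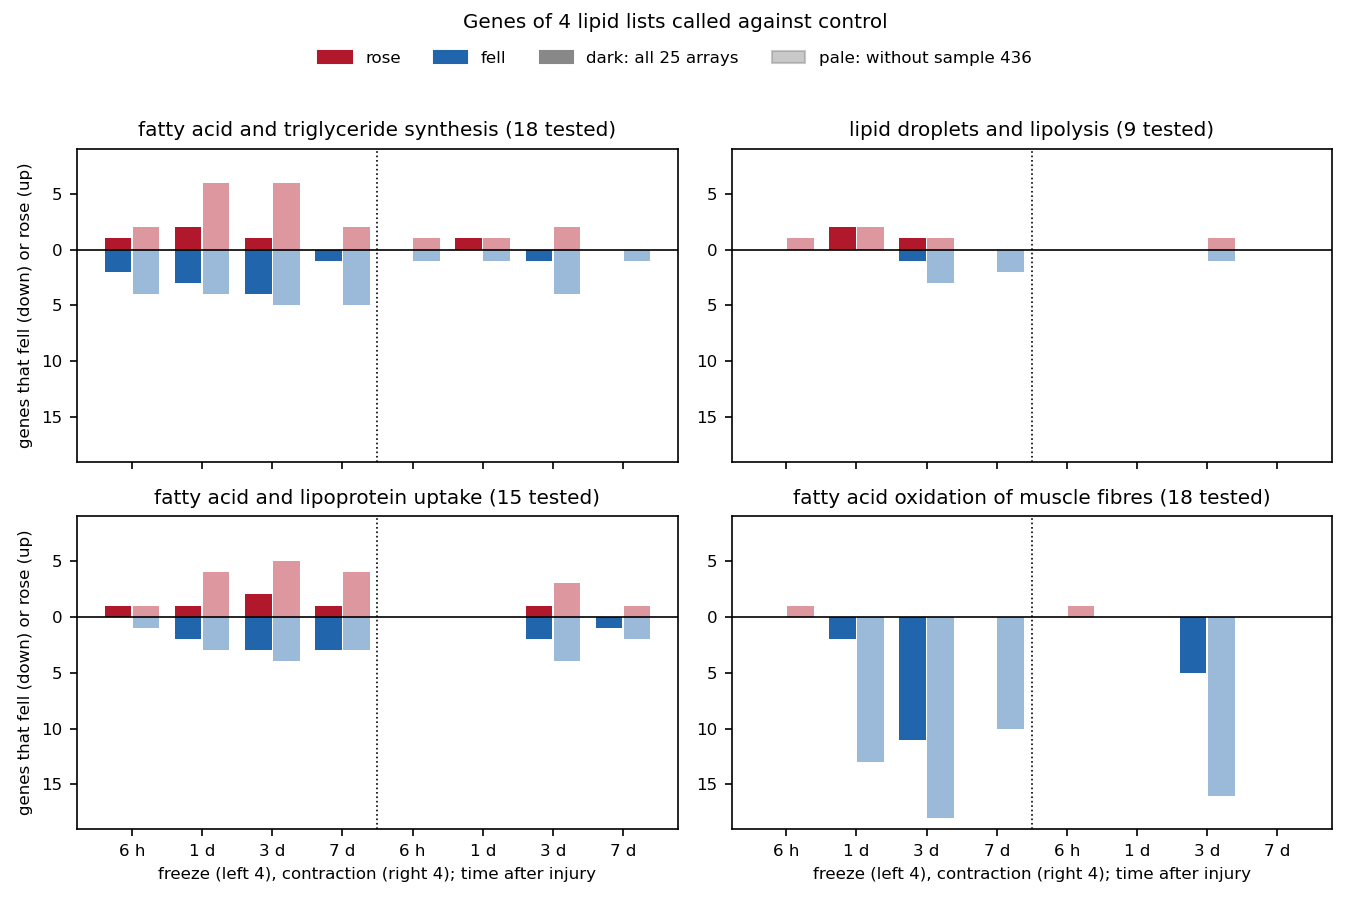
Number of genes that rose (up) or fell (down) against control in each injured group, for 4 lists of lipid genes, with all 25 arrays (dark) and without sample 436 (pale). Oxidation genes fell at 3 days after both injuries, 11 of 18 after freeze and 5 of 18 after contraction with all arrays. Of all probe sets tested, 17.9% and 8.25% were called there, in either direction.

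Nuclear receptors and adipogenic factors gave mixed calls. Cebpd, an early adipogenic and injury response factor, rose by 3.62 ± 0.25 at 6 hours after freezing (adjusted p = 2.89e-09) and by 3.33 ± 0.25 at 6 hours after contraction (adjusted p = 7.47e-09). Esrra, a receptor that drives oxidation genes, fell at 1, 3 and 7 days after freezing, by 1.38 ± 0.29 at 1 day (adjusted p = 0.00361). Cebpa, a factor of mature fat cells and of myeloid cells, rose by 1.85 ± 0.52 at 3 days after freezing (adjusted p = 0.0228) and reached 1761.9 there, against 177.4 to 241.1 in controls. Pparg, the master regulator of fat cells, gave 68.8 at most in that group and 3.6 to 18.2 in controls (1.23 ± 0.43, adjusted p = 0.0517, and 0.000708 without sample 436). Of the 20 tested, 0 rose and 1 fell at 7 days after freezing with all arrays, and 2 rose and 2 fell without sample 436. The share of all probe sets called at 7 days after freezing was 5.29%, or 19.7% without sample 436. Of 6 carbonic anhydrases tested besides Car3, 1 fell at that time, Car14, by 2.01 ± 0.50 (adjusted p = 0.0247).

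Markers of other cell types moved over the same days. Of 15 macrophage markers, 12 rose at 1 day, 14 at 3 days and 8 at 7 days after freezing, and 12 rose at 3 days after contraction. Without sample 436 these counts were 15, 15, 12 and 14. The share of all probe sets called in these comparisons was 14.2%, 17.9%, 5.29% and 8.25%. Without sample 436 it was 27%, 42.6%, 19.7% and 22.9%. The macrophage markers summed to 33296.4 and 35647.4 at 3 days after freezing without sample 436, and to 501.2 in sample 436, against 749.1 to 981.8 in controls. At 1 day their sum was 7755.9 to 10903.9 after freezing and 1611.2 to 2398.5 after contraction. Of 10 fibroblast and fat progenitor markers, 6 rose at 7 days after freezing (8 without sample 436), with a median difference of 2.11 beside -0.06 over all, and 0 rose at 7 days after contraction. They summed to 23522.8 and 23565.2 at 7 days after freezing and to between 4856.9 and 8310.6 after contraction, against 3855.6 to 7171.6 in controls. Of all probe sets tested, 5.29% were called at 7 days after freezing, or 19.7% without sample 436. The list was drawn up with collagens in it, so its rise does not separate fat progenitors from other fibroblasts. Of 11 endothelial markers 0 were called at 7 days after freezing (1 fell without sample 436), where they summed to between 2072.7 and 2078.1, against 1820.1 to 2084.9 in controls. Of 9 slow fibre markers 4 rose then (4 rose and 1 fell without sample 436), and of 12 fast fibre markers 0 changed, or 2 fell without sample 436. Fast markers fell at 3 days after freezing, 6 of 12 with all arrays and 12 of 12 without sample 436. For the actin controls the ratio of 3′ to 5′ signal, a sign of RNA integrity, was 0.56 to 0.595 in uninjured muscle. After freezing it was 1.01 to 1.31 at 1 day, 0.741 to 1.09 at 3 days and 0.776 to 0.808 at 7 days. After contraction it was 0.617 to 0.641 at 1 day and 0.923 to 1.21 at 3 days. The part of these cell types and of RNA integrity in the lipid gene results was not tested.

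**Figure D4:**
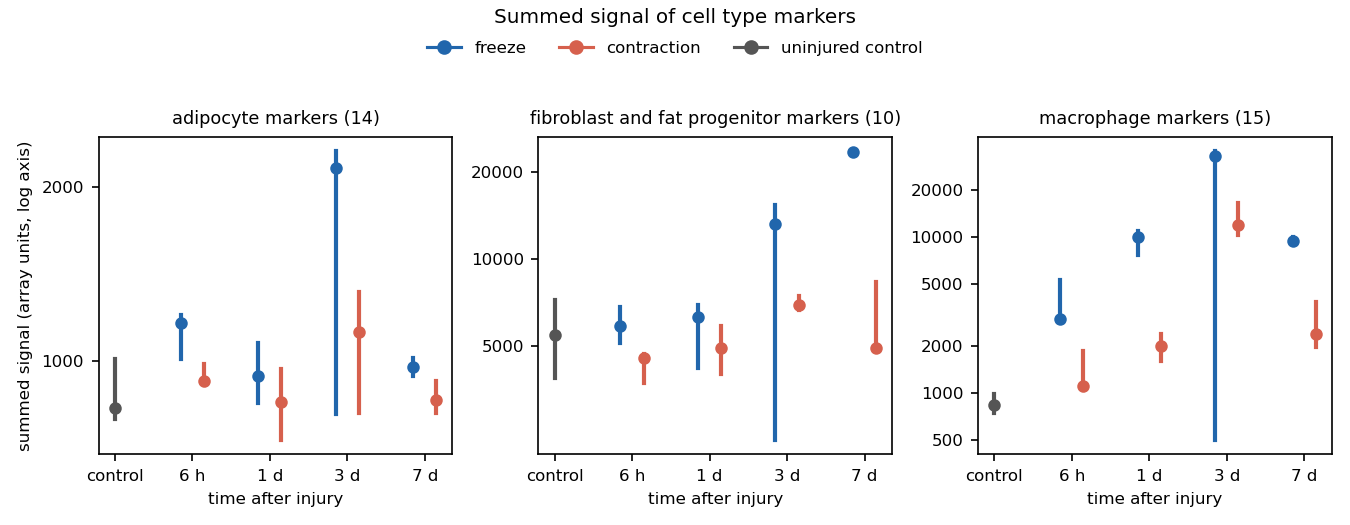
Summed signal of 3 lists of cell type markers, on a log axis in array units, with the median (point) and the range (line) over the arrays of each group, freeze left of contraction at each time and controls as the baseline at the left. At 7 days after freezing the 10 fibroblast and fat progenitor markers sum to 23522.8 and 23565.2 units. The 14 fat cell markers, of which 8 passed the filter, overlap the controls in their sum.

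The pooled SD between arrays of a group, without sample 436, was 0.605 for Ces1d, 0.533 for Rxrg, 0.453 for Plin4, 0.392 for Fabp4 and 0.388 for Adipoq, beside a median of 0.323 over all probe sets tested. It was 0.259 for Thrsp and 0.243 for Car3. The array with the highest Adipoq of its group was also the highest for Thrsp in 6 of 9 groups, for Ces1d in 5, for Fabp4, Scd1, Lpl and Rxrg in 3 and for Plin4 and Car3 in 1. At 7 days after freezing sample 440 was the higher of the 2 for Adipoq, Thrsp, Scd1, Ces1d and Lpl, and sample 454 for Fabp4, Plin4, Car3 and Rxrg. These orders are descriptions, since groups of 2 or 3 arrays share an array across genes.

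Over the 9 group means, the genes with the pattern most like Adipoq by Pearson correlation among 6919 genes were Plagl1 (0.968), Itih5 (0.955), Scd1 (0.948), Hnrnpu (0.945) and Mdk (0.933). For Ces1d they were Padi3 (0.967), Rpp21 (0.966), Dnaja2 (0.954), Asrgl1 (0.943) and Kyat3 (0.941). For Rxrg they were Tmem185a (0.975), Adi1 (0.957), Artn (0.956), Elp3 (0.955) and Mrps18a (0.952). With so many genes and 9 points, values of this size are a description only, and the means share their arrays. Without sample 436, 4 of the 5 stayed among the 5 most like Adipoq, 2 for Ces1d (Rpp21 and Dnaja2, with Sgta, Ifngr2 and Cftr in place of the others) and 4 for Rxrg.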

How the data were processed

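RNA of 25 tibialis anterior muscles was measured on 25 Affymetrix MG-U74Av2 arrays. The deposited values are linear signal intensity per probe set, made with MAS5 per the submitters' processing notes, with no version given. On all arrays the 2% trimmed mean lay between 150.09 and 150.13, so each was scaled to 1 common level. For arrays, the number of samples limits the precision. From these values log2(signal + 13) was computed, a probe set was kept if it exceeded its array's 40th percentile on 2 or more arrays (9506), and 9 group means were fitted with limma 3.58.1 in R 4.3.3 (trended eBayes, Benjamini-Hochberg within each of 14 comparisons and 2 F tests, adjusted p under 0.05). The fit was repeated without freeze at 3 days sample 436. The script was tested on simulated data. Genes were named from the platform annotation, where 10855 probe sets had 1 symbol, 396 several and 1237 no entry. Named genes were the members, up to 2 called rises and 2 called falls of largest size per list and comparison, defining fat cell markers, and the 5 genes most like Adipoq, Ces1d and Rxrg. Members and lists were chosen with earlier results of these data known. Alternatives covered the pseudocount, normalization, filter, probe set, blocks and single omissions.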

Additional observations from a re-analysis of the deposited data

Results flagged for a closer look

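Rxrg was picked out because its change at 1 day differed between the injuries in a test of the difference itself. Freeze minus contraction at 1 day was -2.37 ± 0.58 (adjusted p = 0.0398 by limma, and 0.000926 without freeze at 3 days sample 436), with all 3 freeze arrays below both contraction arrays. With adjacent sample numbers as a random block the adjusted p was 0.0504. The actin ratio of 3′ to 5′ signal was 1.01 to 1.31 in these freeze arrays and 0.617 to 0.641 in the contraction arrays. Its part in the difference was not tested.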

How the results depend on the processing

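Over 43 pairs of a member and a comparison, 1462 values were recomputed: 1330 kept direction and side of the threshold, 70 lost a call, 56 gained one and 6 changed sign. The sign changes were Scd1 with its dimmest probe set (-0.79 for freeze at 7 days against control, -0.44 against contraction at 7 days, -0.10 against freeze at 1 day) and Plin4 for freeze against contraction at 3 days (0.33, 0.61 and 0.22 without samples 449, 450 and 468; -1.08 without sample 436), which was -0.08 and not called with all arrays. With only the groups compared in the fit, the count of members called was 1, 3 and 1 for contraction at 1, 3 and 7 days, 5 and 0 for freeze at 1 and 3 days, 2 for freeze against contraction at 1 day and at 7 days, and 5 for freeze at 7 days against 1 day. With each gene's dimmest probe set it was 2 for contraction at 3 days, 1 for freeze at 7 days and 4 for the F test of any injured group. It was 0 for freeze against contraction at 1 day with adjacent sample numbers as a block, and 2 for contraction at 7 days against 1 day with arrays centred on the median. Leaving out 1 array at a time gave 0 to 1, 0 to 6 and 0 to 3 members for contraction at 1, 3 and 7 days, and 0 to 0 at 6 hours. It gave 0 to 1, 2 to 5, 0 to 6 and 0 to 7 for freeze at 6 hours, 1, 3 and 7 days. Between injuries it gave 0 to 0, 0 to 2, 0 to 3 and 0 to 2 at these 4 times. It gave 0 to 2 and 2 to 5 for 7 days against 1 day in contraction and in freeze, 6 to 8 for the F test and 0 to 1 for injury by time. The cause of these changes was not tested. The groups share no replicate numbers in the labels, so the only paired fit took the 10 pairs of contraction and freeze arrays with adjacent sample numbers as a random block, as given above. Signals near the 40th percentile (Adipoq, Ces1d, Rxrg) limit how well their fold changes are known.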
